A study of Mus musculus with 6 samples.

Results

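Interferon response and antigen presentation genes were examined in 3 related mouse hepatocellular carcinoma cell lines. The set holds 44 genes chosen by symbol: 4 transcriptional regulators, 6 sensors of foreign nucleic acid and their partners, 25 antiviral effectors, 8 antigen presentation genes and the checkpoint ligand Cd274. A gene was measured where a probe set of the array named it alone, and the brightest such probe set, by its mean signal, stood for the gene. This rule found 42 of the 44 genes among 18193 genes in all. Expression of Isg15 and Ifi44 was not analysed here, and these genes enter only the search of promoters.

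Expression was measured on 6 Affymetrix mouse arrays, 2 for each line. BL185 is the parent line, without selection. M1 and I1 are populations drawn from BL185 by selection for migration, and the sample titles call each of them a subclone. Cells of all 3 lines were grown in DMEM with fetal bovine serum, and no interferon or other agent is named for any of them. A subclone taken without selection was not measured, so the selection and the subcloning cannot be told apart. Whether the arrays of a line hold RNA of separate cultures is not given in the labels; p-values here measure the spread between these arrays alone, which may be technical. The question was how expression in each migratory line differed from that of the parent.

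Interferons are secreted proteins that cells release when they sense viral nucleic acid. Type I interferon activates the kinases Jak1 and Tyk2 and the factor ISGF3, which includes Stat2 and Irf9 and binds the interferon-stimulated response element (ISRE) in front of antiviral genes. Type II interferon acts at gamma-activated sites (GAS) and induces Irf1, the immunoproteasome and the genes that load peptides onto class I molecules. Many tumour lines keep a low level of this programme without added interferon.

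The promoters of 5 members are printed because they show the motifs through which the pathway acts, before genes that differ in how they compared between the lines. Each is the 300-base window of the RefSeq table (assembly GRCm38.p6), with 250 bases before the transcription start and 50 after it, read 5′ to 3′ on the gene's strand. Capitals mark matches on either strand to the ISRE core, such as GAAACTGAAA in B2m and TTTCACTTTC in Ifit1, and to the GAS motif, TTCNNNGAA, which has the same form on both strands. The 2 motifs can overlap. The windows are chr8:71537423-71537722 on the minus strand for Bst2, chr2:122147437-122147736 on the plus strand for B2m, chr7:141010695-141010994 on the minus strand for Ifitm3, chr19:34640639-34640938 on the plus strand for Ifit1 and chr11:53769764-53770063 on the plus strand for Irf1.
Bst2: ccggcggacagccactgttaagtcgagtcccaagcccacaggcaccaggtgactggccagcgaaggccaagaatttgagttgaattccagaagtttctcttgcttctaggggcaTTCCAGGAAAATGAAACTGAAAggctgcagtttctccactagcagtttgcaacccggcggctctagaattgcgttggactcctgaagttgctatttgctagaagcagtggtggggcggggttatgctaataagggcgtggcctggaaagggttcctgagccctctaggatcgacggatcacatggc
B2m: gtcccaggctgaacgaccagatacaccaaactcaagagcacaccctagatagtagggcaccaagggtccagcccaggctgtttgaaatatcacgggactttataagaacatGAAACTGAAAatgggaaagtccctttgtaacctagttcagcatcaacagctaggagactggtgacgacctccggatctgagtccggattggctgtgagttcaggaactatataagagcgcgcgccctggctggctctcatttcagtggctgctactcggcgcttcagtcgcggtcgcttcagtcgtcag
Ifitm3: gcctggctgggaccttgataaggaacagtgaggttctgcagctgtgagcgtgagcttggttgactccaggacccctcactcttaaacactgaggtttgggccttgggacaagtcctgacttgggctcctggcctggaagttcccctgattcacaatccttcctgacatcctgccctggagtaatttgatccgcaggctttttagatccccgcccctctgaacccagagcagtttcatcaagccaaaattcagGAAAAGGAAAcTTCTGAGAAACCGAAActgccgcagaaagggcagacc
Ifit1: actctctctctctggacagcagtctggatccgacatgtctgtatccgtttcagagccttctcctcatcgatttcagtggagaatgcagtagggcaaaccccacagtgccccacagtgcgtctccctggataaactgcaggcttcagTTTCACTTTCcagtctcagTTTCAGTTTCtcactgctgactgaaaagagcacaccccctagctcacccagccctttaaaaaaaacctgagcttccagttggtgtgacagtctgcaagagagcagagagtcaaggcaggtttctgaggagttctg
Irf1: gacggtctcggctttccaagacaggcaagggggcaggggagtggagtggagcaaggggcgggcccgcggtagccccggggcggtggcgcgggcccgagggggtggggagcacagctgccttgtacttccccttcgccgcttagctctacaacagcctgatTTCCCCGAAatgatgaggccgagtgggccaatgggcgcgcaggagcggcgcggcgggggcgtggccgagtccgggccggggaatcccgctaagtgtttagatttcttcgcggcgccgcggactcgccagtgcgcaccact

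Of the 44 genes, 33 had a window in the table, and some had more than 1 start, which gave 37 windows. The ISRE core lay in a window of 14 of these 33 genes, and in 3.44% of all 32851 windows. It was found in 13 of 26 interferon and antiviral genes and in 1 of 6 antigen presentation genes, B2m. The GAS motif lay in a window of 9 of the 33 genes and in 8.30% of all windows. Bst2 held 2 overlapping ISRE cores and a GAS motif that runs into them, Ifitm3 held 2 ISRE cores and 1 GAS motif just after its start, and Ifit1 held 2 ISRE cores. Irf1 held a GAS motif and no ISRE core in the window shown, and neither in the window of its other listed start. The windows of Psmb9 and Tap1, which lie head to head on opposite strands, share 275 bases. A match is a string of letters and says nothing of binding.

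Values are the deposited log2 signals, in which a difference of 1 is a 2-fold change in signal. Signals of different genes come from different probes and are not compared. Over all probe sets the 2 arrays of BL185 correlated at 0.997 and those of I1 at 0.994, but those of M1 only at 0.910. Over the 18193 genes, the root mean square SD between the arrays of a line was 0.65 for M1, against 0.10 for BL185 and 0.16 for I1. Replicate 1 of M1 stood apart. Its SD over probe sets was 1.62, against 1.83 to 1.97 on the other arrays, and its signal for the 3′ control of 18S RNA was 12.5, against 10.1 to 11.5. It was the lowest of the 6 arrays for 79.3% of genes with a mean of 10 or more and the highest for 64.5% of genes with a mean under 8. Among the members it was the lowest for 7 of 11 with a mean of 10 or more and the highest for 5 of 10 with a mean under 8. Counts of called members are therefore given with and without it, and its part in each result was not tested further.

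The epithelial markers Krt8, Krt18, Epcam and Cdh1 were above the median of every array in all 3 lines. Of 7 hepatocyte markers, 3 were above every array's median, Hnf4a among them at 11.94 to 13.34, while Alb read 7.53 to 8.43, close to the array medians of 7.87 to 8.11. Of 12 leukocyte markers measured, 6 were above every median, and the pan-leukocyte marker Ptprc was below it at 6.25 to 7.17. The log2 summed signal of the leukocyte markers was 12.90 to 12.92 in BL185, 12.77 to 12.86 in M1 and 12.95 to 13.08 in I1. Of the 12, 9 had a positive difference from BL185 in each migratory line, with medians of 0.28 in M1 and 0.30 in I1, and that of M1 was 0.020 without replicate 1. The calls were in the other direction: the macrophage marker Cd68 was 10.74 and 10.56 in BL185 and between 7.37 and 7.78 on the other 4 arrays, and fell in M1 (adjusted p 0.0147) and in I1 (adjusted p 0.0262) by limma. The leukocyte tetraspanin Cd53 fell in M1 (-1.66, adjusted p 0.0469) and was at -1.46 in I1 (adjusted p 0.0766). Of the hepatocyte markers, limma called 1 lower in M1 and 0 in I1. Their median difference was 0.48 in M1 (0.093 without replicate 1) and 0.52 in I1. Of 7 fibroblast and stellate markers, 3 were above every median, and of 6 endothelial markers, 1. Median differences of the fibroblast markers were 0.39 in M1 (0.16 without replicate 1) and 0.43 in I1. For the endothelial markers they were 0.33 (0.028) and 0.27, and limma called 0 of either list. The part of these markers in the differences below was not tested. In bulk samples, fewer cells of a type and less RNA per cell cannot be told apart.

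The members spanned much of the range of the arrays. Their means over the 6 arrays ran from 6.36 to 13.4 with a median of 8.52, against a median of 8.85 for all genes. A mean under 8, near or below the array medians, was read for 10 members, a mean of 8 to 10 for 21, and a mean of 10 or more for 11. Only 20 of the 42 members were above the array median on all 6 arrays. Classical interferon-induced genes were among the others, such as Ifit1, Mx1, Oasl2, Gbp2, Gbp3 and Usp18. Without detection calls, such dim signals cannot be told from background.

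**Figure D1:**
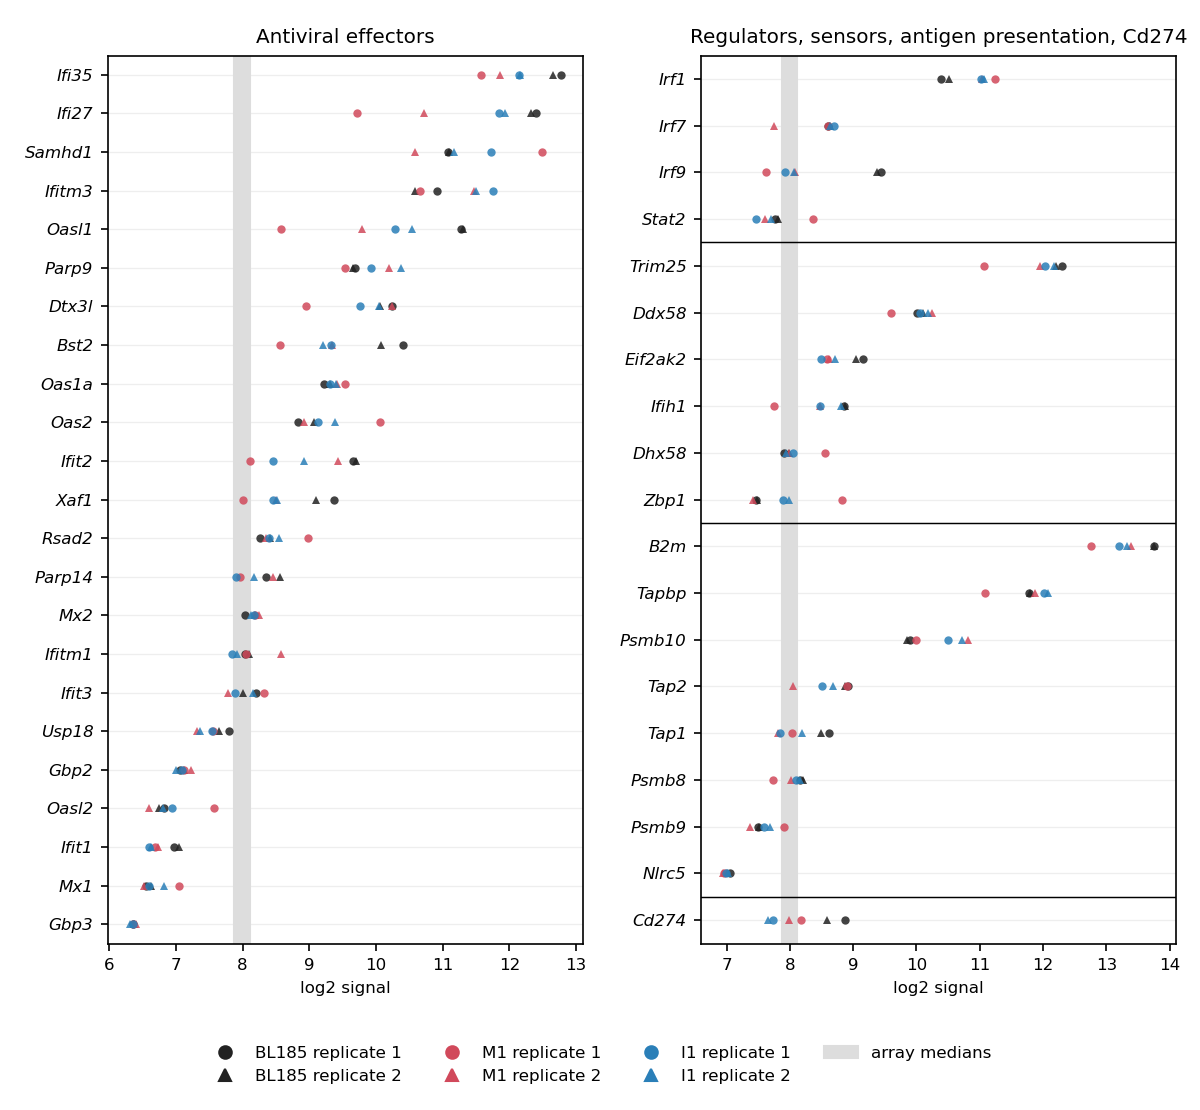
Log2 signal (x axis) of the 42 measured members on each of the 6 arrays, with antiviral effectors at the left and regulators, sensors, antigen presentation genes and Cd274 at the right, separated by lines. Colours are lines, symbols are replicates, and the grey band spans the array medians, 7.87 to 8.11. The BL185 arrays lie to the right of all M1 and I1 arrays for 15 members, such as Irf9, Ifi27, Oasl1, Bst2, Ifi35, Xaf1, B2m and Cd274. They lie to the left of them for 3, Irf1, Oas1a and Psmb10. Over all 18193 genes the numbers are 4247 and 3877.

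The M1 line was compared with BL185 in a limma fit over all 6 arrays. None of the 42 members passed an adjusted p of 0.05 (Benjamini-Hochberg over 18193 genes), and 0.879% of all genes did. The members with the largest differences were lower in M1: Ifi27, Oasl1, Irf9, Bst2, Ifi35 and Xaf1, each read 2.0-fold to 4.43-fold lower except Xaf1, at -0.99 ± 0.24 (SE) on the log2 scale. Irf1 was the member with the largest difference in the higher direction among those whose arrays did not overlap. At an unadjusted p under 0.05, 1 member was higher and 11 were lower, where 3.92% and 11.5% of all genes were.

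Both M1 arrays were below both BL185 arrays for 18 of the 42 members and above them for 5. The same held for 25.7% and 26.2% of all genes. Among members with a mean of 8 or more the counts were 15 lower and 4 higher of 32, and the shares of all genes at that level were 35.5% and 20.0%. The median difference was -0.19 over the 42 members, against 0.07 over all genes. It was -0.04 over the 33 interferon and antiviral members and -0.30 over the 8 antigen presentation members. Without M1 replicate 1 these class medians were -0.17 and -0.15, against 0.033 over all genes. At a mean of 8 or more, with all arrays, they were -0.25 and -0.36, against -0.18 over all genes at that level. The difference depended on signal in all genes: the median was 0.21 for genes with a mean under 8, 0.10 at 8 to 10 and -0.43 at 10 or more. For members at those levels it was 0.11, -0.42 and -0.30. The medians of all genes without M1 replicate 1 were 0.041, 0.034 and 0.0034, so the dependence on signal in M1 rested on that array, and those of the members were -0.12, -0.24 and -0.30.

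I1 was compared with BL185 in the same fit, and both comparisons share the BL185 arrays. None of the members passed the threshold, as against 0.511% of all genes. The fit shares 1 estimate of the spread over the lines, so the errors for I1 include the spread of the M1 arrays. The root mean square SD between arrays was 0.65 for M1, against 0.10 for BL185 and 0.16 for I1. With only the BL185 and I1 arrays in the fit, 19 members and 46.6% of all genes were called. Irf9, Cd274, Ifit2 and Bst2 had the largest differences in the lower direction, and Ifitm3, Psmb10 and Irf1 in the higher direction, among members whose arrays did not overlap. At an unadjusted p under 0.05, 2 members were higher and 7 were lower, where 4.18% and 7.47% of all genes were. Both I1 arrays were below both BL185 arrays for 21 members and above them for 11, and the same held for 33.5% and 42.6% of all genes. Among the 32 members with a mean of 8 or more, the counts were 17 lower and 9 higher, and the shares of genes at that level were 44.0% and 36.2%. The median difference was -0.07 over the members, -0.08 over the interferon and antiviral members and -0.04 over the antigen presentation members, against 0.06 over all genes. The difference depended on signal in I1 too. The median over all genes was 0.14 with a mean under 8, 0.08 at 8 to 10 and -0.18 at 10 or more. For members at those levels it was -0.04, -0.22 and 0.06.

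**Figure D2:**
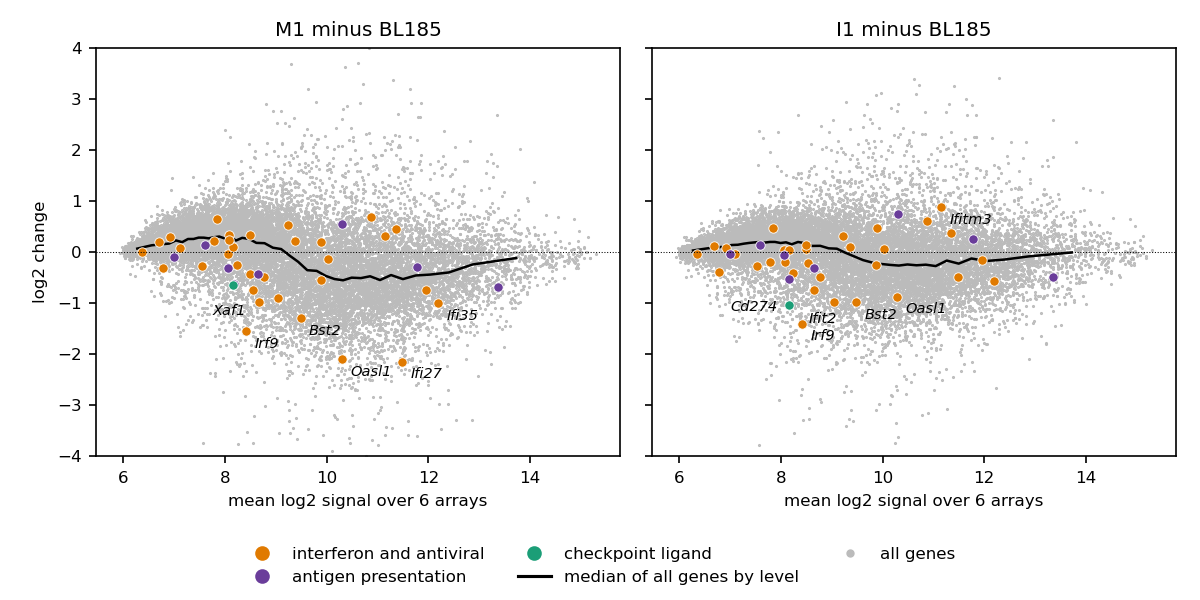
Log2 change from BL185 (y axis) against the mean log2 signal over the 6 arrays (x axis) for M1 (left) and I1 (right), with the members coloured by class over all 18193 genes in grey and the running median of all genes as a line. In M1 the line passes from above 0 at low signal to below 0 at high signal, and Irf9, Oasl1 and Ifi27 lie far under it. The axis stops at -4 and 4, which leaves out 10 genes in M1 and 5 in I1, none of them labelled.

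When M1 replicate 1 was left out, the remaining M1 array was taken to vary as the arrays of the other lines do. In that fit 5 members passed the threshold as higher in M1 and 11 as lower, where 11.7% and 12.3% of all genes passed. The 5 were Ifitm1, Ifitm3, Irf1, Parp9 and Psmb10. The 11 were Bst2, Cd274, Eif2ak2, Ifi27, Ifi35, Irf7, Irf9, Oasl1, Tap1, Tap2 and Xaf1. For I1 the same fit called 5 members higher and 14 lower, and 22.5% and 24.1% of all genes. The 5 were Ifitm3, Irf1, Parp9, Psmb10 and Zbp1. The 14 were B2m, Bst2, Cd274, Eif2ak2, Ifi27, Ifi35, Ifit1, Ifit2, Irf9, Oasl1, Parp14, Tap1, Tap2 and Xaf1.

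Among the regulators, Irf9, the DNA-binding subunit of ISGF3, differed most. Its signal was 9.44 and 9.37 on the BL185 arrays, 7.63 and 8.07 on those of M1 and 7.92 and 8.07 on those of I1. All 4 arrays of the migratory lines were well below both parent arrays and near the array medians. The difference was -1.55 ± 0.22 in M1 (95% interval -2.10 to -1.01, 2.94-fold lower, adjusted p 0.0577) and -1.41 ± 0.22 in I1 (-1.95 to -0.86, 2.65-fold lower, adjusted p 0.0896). Without M1 replicate 1 the adjusted p was 6.8e-06 in M1 and 3.8e-07 in I1.

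Irf1, a transcription factor induced by interferon gamma that drives antigen presentation genes, differed in the other direction. It read 10.38 and 10.51 on the BL185 arrays, 11.24 and 11.03 on those of M1 and 11.03 and 11.07 on those of I1. The migratory arrays were all above both parent arrays, by 0.69 ± 0.18 in M1 (0.24 to 1.13, 1.61-fold higher, adjusted p 0.183) and by 0.60 ± 0.18 in I1 (0.16 to 1.05, 1.52-fold higher, adjusted p 0.272). Without M1 replicate 1 both passed, with adjusted p-values of 0.0064 and 0.00065.

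Stat2, the partner of Irf9 in ISGF3, read 7.76 and 7.81 on the BL185 arrays, 8.37 and 7.61 on those of M1 and 7.46 and 7.70 on those of I1. These signals lie around the array medians and the M1 arrays fell on both sides of BL185. The difference was 0.21 ± 0.29 in M1 and -0.21 ± 0.29 in I1. The sign in M1 turned with cyclic loess, with averaged probe sets and without M1 replicate 1 (-0.17). A dimmer probe set of Stat2 was lower in both lines, at -0.25 in M1 and -0.42 in I1. Irf7, which amplifies type I interferon production, read 8.60 and 8.63 on the BL185 arrays, 8.60 and 7.75 on those of M1 and 8.70 and 8.64 on those of I1. Only M1 replicate 2 stood low, and the difference of -0.44 ± 0.31 in M1 was not past the threshold (adjusted p 0.458). Irf7 was at -0.86 with an adjusted p of 0.00027 in M1 when replicate 1 was left out, which rests on that 1 low array.

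Of the sensors, Ifih1 (MDA5), which detects long double-stranded RNA, read 8.86 and 8.86 on the BL185 arrays, 7.75 and 8.48 on those of M1 and 8.47 and 8.81 on those of I1. Both M1 arrays were lower, but replicate 1 carried most of the difference of -0.75 ± 0.29 (adjusted p 0.325), which was -0.38 without it. Trim25, the ubiquitin ligase that acts with the sensor RIG-I, had the same form, at 12.30 and 12.21 on the BL185 arrays, 11.06 and 11.96 on those of M1 and 12.02 and 12.18 on those of I1. Its difference in M1 was -0.75 ± 0.32 (adjusted p 0.358; -0.30 without replicate 1) and in I1 -0.15 ± 0.32 (adjusted p 0.851), where the sign turned with cyclic loess and with quantile normalization.

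Eif2ak2 (PKR), a kinase that halts translation on double-stranded RNA, was lower on all 4 migratory arrays. It read 9.15 and 9.04 on the BL185 arrays, 8.58 and 8.62 on those of M1 and 8.49 and 8.71 on those of I1, a difference of -0.50 ± 0.18 in each line (adjusted p 0.291 and 0.37). Ddx58 (RIG-I) itself differed from BL185 by -0.14 in M1 (0.19 without M1 replicate 1) and 0.06 in I1. Its dimmer probe sets differed by 0.15 and -0.32 in M1 and by 0.05 and -0.76 in I1. Dhx58 (LGP2), a relative of RIG-I without its signalling domain, was 7.91 and 7.99 on the BL185 arrays, 8.55 and 7.99 on those of M1 and 8.05 and 7.94 on those of I1. Dhx58 and Zbp1, a sensor of Z-form nucleic acid, read highest on M1 replicate 1, and Zbp1 read 7.47 and 7.48 on the BL185 arrays, 8.82 and 7.41 on those of M1 and 7.89 and 7.99 on those of I1.

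The largest differences of the set were in 2 effectors. Ifi27, a strongly interferon-inducible membrane protein, read 12.40 and 12.33 on the BL185 arrays, 9.71 and 10.72 on those of M1 and 11.84 and 11.93 on those of I1. The lines did not overlap, with M1 lowest and I1 between. Ifi27 was lower, at -2.15 ± 0.35 in M1 (-3.04 to -1.26, 4.43-fold lower, adjusted p 0.0754) and by -0.48 ± 0.35 in I1 (-1.37 to 0.41, adjusted p 0.677). Another probe set of Ifi27 read 11.45 and 11.29 on the BL185 arrays, 8.99 and 9.55 on those of M1 and 10.58 and 10.76 on those of I1, the same order of lines.

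Oasl1, a relative of the oligoadenylate synthetases, read 11.27 and 11.30 on the BL185 arrays, 8.57 and 9.79 on those of M1 and 10.29 and 10.54 on those of I1. The order of the lines was that of Ifi27. The difference was -2.11 ± 0.41 in M1 (-3.15 to -1.06, 4.31-fold lower, adjusted p 0.109) and -0.88 ± 0.41 in I1 (-1.92 to 0.17, 1.84-fold lower, adjusted p 0.525). Without M1 replicate 1 the differences in M1 were smaller and past the threshold, at -1.64 for Ifi27 (adjusted p 7.4e-07) and -1.50 for Oasl1 (adjusted p 3.5e-06).

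Bst2 (tetherin), which holds budding virus at the cell surface, read 10.40 and 10.08 on the BL185 arrays, 8.55 and 9.34 on those of M1 and 9.32 and 9.20 on those of I1. All 4 migratory arrays were below BL185, at -1.29 ± 0.31 in M1 (-2.08 to -0.51, 2.45-fold lower, adjusted p 0.158) and by -0.98 ± 0.31 in I1 (-1.77 to -0.20, 1.98-fold lower, adjusted p 0.307). Ifi35, an interferon-induced leucine zipper protein, read 12.77 and 12.65 on the BL185 arrays, 11.57 and 11.85 on those of M1 and 12.14 and 12.16 on those of I1. It was 2.0-fold lower in M1 (adjusted p 0.0962) and lower, at -0.56 ± 0.19 in I1 (1.47-fold lower, adjusted p 0.339), and its 2 other probe sets were also lower in both lines.

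Xaf1, an interferon-induced antagonist of the apoptosis inhibitor Xiap, read 9.38 and 9.11 on the BL185 arrays, 8.01 and 8.50 on those of M1 and 8.45 and 8.52 on those of I1. The migratory arrays were all lower, but a dimmer probe set of Xaf1 was higher, by 0.44 in M1 and 0.40 in I1. Ifit2, which binds viral RNA, read 9.65 and 9.70 on the BL185 arrays, 8.10 and 9.43 on those of M1 and 8.45 and 8.92 on those of I1. I1 was lower, at -0.99 ± 0.46 (adjusted p 0.52), and the M1 difference of -0.91 ± 0.46 was -0.24 without replicate 1.

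Ifit1, whose promoter carries 2 ISRE cores, was below the median of every array: it read 6.97 and 7.05 on the BL185 arrays, 6.68 and 6.73 on those of M1 and 6.59 and 6.63 on those of I1. The arrays of each migratory line were below BL185, at -0.30 ± 0.16 in M1 and -0.39 ± 0.16 in I1, but at signals that cannot be told from background. The GTPases Gbp2 and Gbp3 and the deconjugating enzyme Usp18 were as dim. Gbp2 read 7.07 and 7.11 on the BL185 arrays, 7.12 and 7.23 on those of M1 and 7.09 and 7.001 on those of I1, so that only the M1 arrays were clear of BL185, and marginally.

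Some effectors had a higher line mean in M1, in I1 or in both. Ifitm3, which blocks entry of enveloped viruses, read 10.92 and 10.58 on the BL185 arrays, 10.66 and 11.47 on those of M1 and 11.76 and 11.50 on those of I1. Both I1 arrays were above BL185, by 0.87 ± 0.33 (0.05 to 1.70, 1.83-fold higher, adjusted p 0.399), while the M1 arrays straddled it. Without M1 replicate 1, Ifitm3 in M1 was higher by 0.72 (adjusted p 0.0054). Its relative Ifitm1 read 8.04 and 8.10 on the BL185 arrays, 8.04 and 8.57 on those of M1 and 7.84 and 7.91 on those of I1, so that 1 M1 array was high and I1 was slightly lower.

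Parp9, which acts in a complex with Dtx3l, read 9.68 and 9.65 on the BL185 arrays, 9.53 and 10.19 on those of M1 and 9.92 and 10.37 on those of I1. I1 lay above BL185 by 0.48 ± 0.29 (adjusted p 0.633), and M1 straddled it. Oas1a, an oligoadenylate synthetase, read 9.22 and 9.31 on the BL185 arrays, 9.53 and 9.42 on those of M1 and 9.31 and 9.41 on those of I1. The difference of 0.21 ± 0.17 in M1 (adjusted p 0.484) was about as large as its error.

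The other effectors were Ifit3, Oas2, Oasl2, Mx1, Mx2, Rsad2, Gbp3, Usp18, Parp14, Dtx3l and Samhd1. Oas2, Oasl2, Mx1, Rsad2 and Samhd1 read highest on M1 replicate 1, and Dtx3l read lowest there, at 8.95 against 10.23 on M1 replicate 2. Samhd1, a dNTP hydrolase, read 12.49 and 10.58 on the M1 arrays, a wider gap than any difference between its line means. Medians over the roles were -0.12 for regulators, -0.32 for sensors and 0.01 for effectors in M1, and -0.08, -0.05 and -0.08 in I1. The M1 medians without replicate 1 were -0.52, -0.18 and -0.062.

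**Figure D3:**
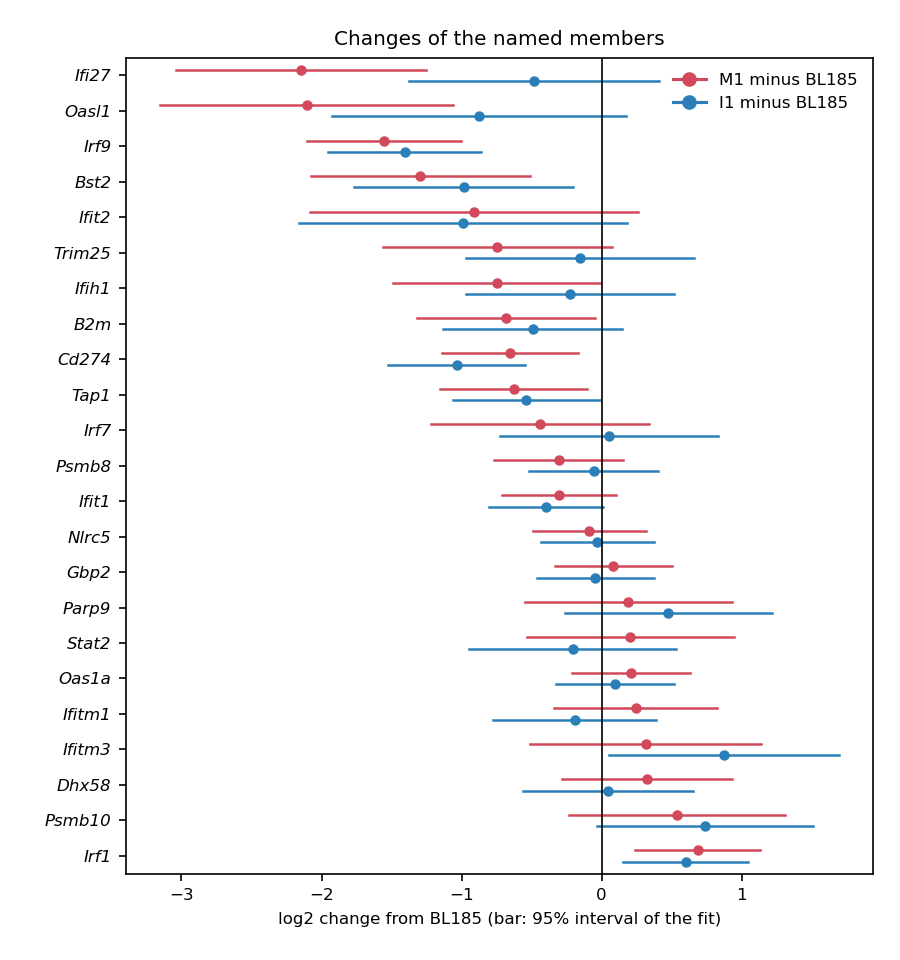
Log2 change from BL185 (x axis) of the 23 members named by rule, for M1 and for I1, each point the fitted difference and each bar its 95% interval. The intervals of Irf9, Bst2, Cd274 and, narrowly, Tap1 lie below 0 and that of Irf1 above 0 in both comparisons, which share the BL185 arrays; no adjusted p of a member was under 0.05.

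Antigen presentation members differed from BL185 in both directions. B2m, the light chain of class I molecules, read 13.76 and 13.75 on the BL185 arrays, 12.76 and 13.38 on those of M1 and 13.20 and 13.33 on those of I1. The migratory arrays were all below the parent, at -0.68 ± 0.25 in M1 (-1.32 to -0.04, adjusted p 0.307) and -0.49 ± 0.25 in I1 (adjusted p 0.563). A further probe set of B2m gave -0.78 and -0.66. B2m was at -0.37 in M1 without M1 replicate 1 (adjusted p 0.072).

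Psmb10, a catalytic subunit of the immunoproteasome, read 9.89 and 9.85 on the BL185 arrays, 10.00 and 10.82 on those of M1 and 10.50 and 10.72 on those of I1. All 4 migratory arrays were above BL185, by 0.54 ± 0.31 in M1 (-0.23 to 1.31, adjusted p 0.428) and 0.74 ± 0.31 in I1 (-0.04 to 1.51, 1.67-fold higher, adjusted p 0.453). Without M1 replicate 1 both passed, with adjusted p-values of 2e-04 and 0.00017. The 2 other immunoproteasome subunits did not have all migratory arrays above BL185. Psmb8 read 8.16 and 8.21 on the BL185 arrays, 7.74 and 8.01 on those of M1 and 8.09 and 8.16 on those of I1. Psmb9 read 7.50 and 7.51 on the BL185 arrays, 7.90 and 7.37 on those of M1 and 7.59 and 7.69 on those of I1. The I1 arrays of Psmb9 were above BL185, by 0.13 ± 0.23, at signals below the array medians.

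Tap1, a subunit of the transporter that carries peptides into the endoplasmic reticulum, read 8.62 and 8.49 on the BL185 arrays, 8.03 and 7.82 on those of M1 and 7.84 and 8.20 on those of I1. All migratory arrays were lower, at -0.63 ± 0.21 in M1 (adjusted p 0.268) and -0.54 ± 0.21 in I1 (adjusted p 0.421), but 3 dimmer probe sets of Tap1 were higher in both lines, by 0.18 to 0.53 in M1 and 0.24 to 0.66 in I1. The direction for Tap1 is therefore uncertain. Its partner Tap2 read 8.92 and 8.87 on the BL185 arrays, 8.90 and 8.05 on those of M1 and 8.50 and 8.68 on those of I1, and Tapbp, which bridges the transporter to class I molecules, ran from 11.09 on M1 replicate 1 to 12.08 on I1 replicate 2. Both I1 arrays of Tapbp lay above the parent, by 0.26 ± 0.29. The M1 arrays of Tapbp straddled the parent, at -0.30 ± 0.29 (0.098 without M1 replicate 1). A dimmer probe set of Tapbp was lower on every migratory array, with differences of -0.38 for M1 and -0.26 for I1. The direction for Tapbp in I1 is therefore uncertain as well. Nlrc5, the transactivator of class I genes, stayed between 6.94 and 7.06 on all 6 arrays, below their medians.

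Cd274 encodes PD-L1, the interferon-inducible ligand of the T cell checkpoint receptor PD-1. It read 8.87 and 8.58 on the BL185 arrays, 8.17 and 7.98 on those of M1 and 7.74 and 7.65 on those of I1. The lines did not overlap, and both I1 arrays were under the array medians. The difference was -1.03 ± 0.19 in I1 (-1.52 to -0.55, 2.05-fold lower, adjusted p 0.124) and -0.65 ± 0.19 in M1 (adjusted p 0.228).

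M1 and I1 were also compared with each other. limma called none of the members and 0.0% of all genes, and at an unadjusted p under 0.05 there were 2 members higher in I1 and 0 lower, where 1.83% and 0.418% of all genes were. Ifi27 was higher in I1 by 1.67 ± 0.35 (adjusted p 0.905) and Oasl1 by 1.23 ± 0.41 (adjusted p 1.00), and the arrays of the 2 lines did not overlap for either. Both I1 arrays were above both M1 arrays for 9 of the 42 members and below them for 7, and the same held for 8.13% and 7.96% of all genes. Among the 32 members with a mean of 8 or more, 8 were above and 4 below, and the shares of genes at that level were 10.5% and 5.37%. The median difference was -0.05 over the interferon and antiviral members and 0.15 over the antigen presentation members, against -0.00 over all genes. Without M1 replicate 1, 6 members were called higher in I1 (Ifi27, Irf7, Oasl1, Samhd1, Tap2 and Zbp1) and 2 lower (Ifit2 and Ifitm1), where 7.20% and 13.4% of all genes were called. Samhd1 (0.87) and Zbp1 (0.53) had a negative difference with that array in the fit, at -0.085 and -0.17.

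Members with and without the ISRE core were set side by side. Of the measured members with a window, 13 held the ISRE core and 18 did not. The median difference in M1 was -0.04 with the core and -0.50 without it, and in I1 -0.08 and -0.17. Over all genes it was 0.07 in M1 and 0.06 in I1. The groups were not matched on signal. When M1 replicate 1 was left out, the M1 medians of the groups lay closer together. Bst2 and B2m, which hold it, read lower in both lines, Ifitm3, which also holds it, read higher in I1, and Ifit1 stayed dim.

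The members were set beside the genes that produce and relay the interferon signal. Of 24 such genes, 23 were measured, and limma called none of them in any of the 3 comparisons. At an unadjusted p under 0.05, 3 were lower in M1, 1 was lower in I1, and 0 differed between I1 and M1, against 11.5% of all genes lower in M1 and 7.47% in I1. Both M1 arrays were below BL185 for 8 and above it for 1, and both I1 arrays below for 10 and above for 8; over all genes these shares were 25.7% and 26.2% in M1 and 33.5% and 42.6% in I1. The interferon receptor subunit Ifnar2 read 11.002 and 11.16 on the BL185 arrays, 9.69 and 10.45 on those of M1 and 10.15 and 10.43 on those of I1. It was lower, at -1.01 ± 0.30 in M1 (-0.63 without M1 replicate 1) and at -0.79 ± 0.30 in I1 (adjusted p 0.406). Its differences had no calls, and neither did those of Ifngr1, a receptor subunit for type II interferon, at -1.19 ± 0.34 in M1 (adjusted p 0.215), Stat3 at -1.04 ± 0.31 (adjusted p 0.229) and the kinase Tbk1 at -1.20 ± 0.62 (adjusted p 0.412). Socs3, a feedback inhibitor of cytokine receptors, was higher by 0.79 ± 0.50 in I1 (adjusted p 0.644), and Stat3 there was at -0.58 ± 0.31. The M1 differences were smaller without M1 replicate 1, at -0.72 for Ifngr1, -0.62 for Stat3 and -0.25 for Tbk1.

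The interferon genes themselves were dim. Ifnb1 read 7.28 and 7.19 on the BL185 arrays, 8.75 and 7.26 on those of M1 and 7.77 and 7.53 on those of I1, and Ifng ran from 6.44 to 6.94. Only M1 replicate 1 was above its array median for Ifnb1. Between I1 and M1 the largest differences of this list were Ifngr1 at 0.83 ± 0.34, Tbk1 at 0.75 ± 0.62 and Irf5 at 0.52 ± 0.46, all with an adjusted p of 1.00. When M1 replicate 1 was left out, Tbk1 was at -0.20 and Irf5 at -0.16, the other direction, and Ifngr1 at 0.36.

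Of 19 further antigen presentation genes, 17 were measured and limma called none in any comparison with all 6 arrays. Their median difference was -0.05 in M1 and -0.11 in I1, and that of M1 was 0.083 without M1 replicate 1. At an unadjusted p under 0.05 there were 3 lower in M1, 1 lower in I1 and 0 between I1 and M1. Over all genes 11.5% were lower in M1 and 7.47% in I1 at that p. The class I heavy chains had large differences. H2-K1 read 13.96 and 13.90 on the BL185 arrays, 12.23 and 12.83 on those of M1 and 12.98 and 13.16 on those of I1, lower, at -1.40 ± 0.25 in M1 (adjusted p 0.0908) and by -0.86 ± 0.25 in I1 (adjusted p 0.268). H2-D1 read 13.59 and 13.56 on the BL185 arrays, 11.96 and 12.79 on those of M1 and 12.77 and 13.00 on those of I1, lower, at -1.20 ± 0.31 in M1 (adjusted p 0.182). The order of the lines was that of B2m, but class I genes are near-identical copies that can share probes, so which gene was measured is uncertain.

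The other differences that led this list were in H2-DMa, a class II peptide-loading chain, at 1.10 ± 0.54 in M1, and in the peptide-trimming enzyme Erap1 at -0.97 ± 0.54 and the non-classical H2-M3 at -0.78 ± 0.35 in I1. In I1 minus M1 they were H2-Aa at -0.55 ± 0.27, H2-K1 at 0.54 ± 0.25 and H2-D1 at 0.51 ± 0.31. These were -0.28, 0.24 and 0.098 without M1 replicate 1, and H2-DMa in M1 was at 0.29. Ciita, the class II transactivator, was below the array medians at 7.28 to 7.59.

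**Figure D4:**
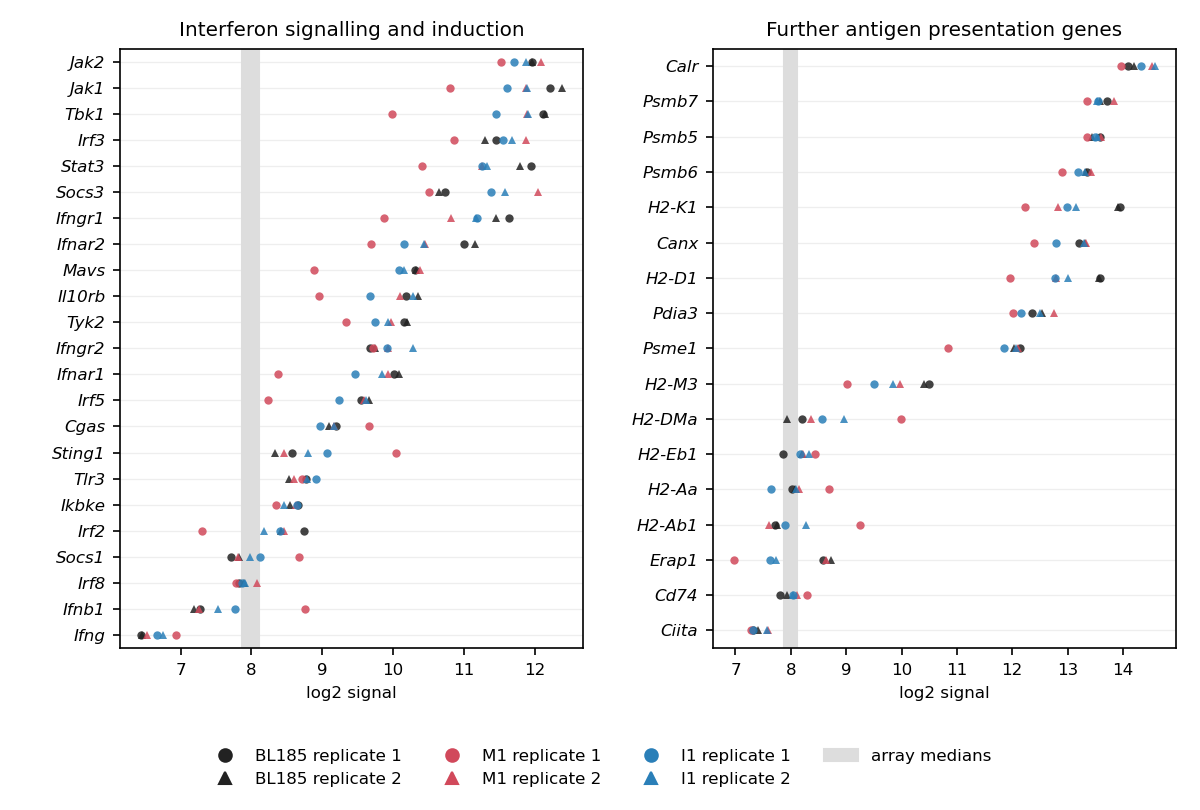
Log2 signal (x axis) on each of the 6 arrays for 23 interferon signalling and induction genes (left) and 17 further antigen presentation genes (right); colours are lines, symbols are replicates, and the grey band spans the array medians. H2-K1 and H2-D1 have both BL185 arrays above all others, and M1 replicate 1 is the array farthest from the rest for many genes of both lists.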

How the data were processed

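The values deposited by the authors are log2 signals of probe sets, made with RMA and affy per the submitters' processing notes. Versions, settings and genome build were not given in the sources used here. The log2 scale was read from the range of the values. The array holds 45101 probe sets: by the platform annotation 34945 named a single gene, 932 several, 64 were controls and 9160 named none; 34741 matched a RefSeq gene by Entrez identifier (GRCm38.p6), with 0 symbols differing. Detection calls were not used, and the number of arrays limits the precision. The number of unused sample columns was 0.

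Line means were fitted over the 6 arrays for 18193 genes with limma 3.58.1 (R 4.3.3; 3 residual and 2.27 prior degrees of freedom), with eBayes and Benjamini-Hochberg adjustment within each comparison. Errors after ± are SEs of that fit, and intervals are 95% intervals. On simulated data the fit was checked for bias in planted changes and, with equal spread in all lines, for recovery of the largest ones. False calls under the unequal spread of these lines were not part of that check. The members and lists were chosen with earlier results of these data known. Named members were, per comparison, the 4 largest differences in each direction among members whose arrays did not overlap, plus 13 listed ones whatever they showed, Isg15 among them; Eif2ak2, Ifi35, Xaf1, Zbp1, Tap2 and the remaining ones were added after their values were seen. Of the 2 pathway lists, the 3 largest differences per comparison were named, with Ifnb1, Ifng and Ciita added. The ISRE core and GAS motif were searched on both strands and counted in Python 3.11.15 with pandas 2.3.3 and numpy 2.4.6, and figures drawn with matplotlib 3.10.9. Alternatives were other filters, probe set rules, scalings, variance models, the replicate block, fewer arrays and each array left out.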

Additional observations from a re-analysis of the deposited data

Results flagged for a closer look

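Irf7 was flagged because the M1 and I1 arrays lay on opposite sides of the BL185 arrays, M1 at or below them and I1 above them. The difference between I1 and M1 was 0.49 ± 0.31 on the log2 scale, with an adjusted p of 1.00 by limma. M1 replicate 1, at 8.60, was within 0.01 of the lower BL185 array, so the separation of M1 rests on M1 replicate 2. That of I1 is thin as well, with I1 replicate 2 at 8.64 and the higher BL185 array at 8.63. I1 minus BL185 was 0.05 ± 0.31. Without M1 replicate 1 the difference between I1 and M1 was 0.92.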

How the results depend on the processing

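No member was called in the main setting in any comparison, and the counts moved most with the M1 arrays. Leaving out each array in turn gave 0 to 29 called members in M1 minus BL185, 0 to 19 in I1 minus BL185 and 0 to 25 in I1 minus M1; the high ends came without M1 replicate 2, and without M1 replicate 1 the counts were 16, 19 and 8. Over all genes these fits called 0 to 12879, 0 to 8481 and 0 to 10365. Calls in M1, with 160 genes in the main setting (50 higher, 110 lower), were 2 members and 312 genes with array weights, 8 members and 1831 genes (847 higher, 984 lower) with cyclic loess, 3 members and 1176 genes (633 higher, 543 lower) with quantile normalization, 2 members and 338 genes when the probe sets of a gene were averaged, 57 genes (5 higher, 52 lower) with median centring, 0 genes with only the arrays of the lines compared and 5 at an adjusted p of 0.01. Calls in I1, with 93 genes in the main setting (35 higher, 58 lower), were 19 members and 8551 genes with array weights, 5 members and 1544 genes (765 higher, 779 lower) with cyclic loess, 2 members and 981 genes (608 higher, 373 lower) with quantile normalization, 23 genes (2 higher, 21 lower) with median centring, 19 members and 8481 genes with only the arrays compared and 3 at an adjusted p of 0.01. In I1 minus M1, array weights called 2 genes, cyclic loess 1 member, Ifi27, and 51 genes, a minimum mean of 8 called 1 gene and quantile normalization 6. With the replicate number as a block, 0 members were called in any comparison, and 38 genes in M1 and 1 in I1; with the BL185 numbers crossed, 76 and 0. Deviations of same-numbered arrays correlated at -0.13 for BL185 and M1, 0.16 for BL185 and I1 and 0.37 for M1 and I1. Whether the numbers pair the arrays is not settled by these values. The median of the interferon and antiviral members in M1 (-0.04) was -0.25 with a minimum mean of 8, -0.17 with median centring and -0.17 to 0.0034 with each array left out, and in I1 minus M1 (-0.05) it was 0.15 with that minimum. The median of the antigen presentation members was -0.077 in M1 with averaged probe sets (-0.30 in the main setting) and -0.32 to -0.15 with each array left out, the latter without M1 replicate 1, and in I1 (-0.04) -0.18 with a minimum mean of 8, 0.053 with averaged probe sets and -0.13 with cyclic loess. Median centring moved the median of all genes in M1 by -0.13, and the sign of Gbp2, Gbp3 and Mx2 changed with it; with cyclic loess the sign changed in M1 for Ddx58, Gbp2, Gbp3, Mx2, Psmb9, Stat2 and Tapbp, and in I1 for Dhx58, Mx2 and Trim25. Of 1230 values of the 23 members named by rule under the alternatives, 120 passed the threshold with their direction kept, and 1 passed in the other direction: Ifit2 in I1 minus M1 without M1 replicate 2, at 0.59 (-0.74 to 0.59 over the arrays left out). Outside those 23, Samhd1 and Zbp1 also passed in the other direction in I1 minus M1 without M1 replicate 1. The cause of these differences was not tested.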

Other observations

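The measured members had 29 other probe sets that named them alone. Of these, 18 had the sign of the chosen probe set in M1 minus BL185 and 18 in I1 minus BL185; of the 12 with a mean of 8 or more, 11 and 11 did. The other probe sets of Samhd1 read -0.46, 0.44, 0.81 and 0.54 in M1 and 0.04, 0.40, 0.81 and 0.40 in I1, against 0.45 ± 0.63 and 0.37 ± 0.63 for the chosen one.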
